A study of Mus musculus with 12 samples.

Results

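Bpifa1 and Bpifb1 are neighbouring genes on mouse chromosome 2 that encode secreted defence proteins of the airway and nasal lining. All probes carrying either gene symbol were taken from the normalized expression table, which gave 2 of 27308 gene symbols and 3 of 56605 probes. Bpifa1 had 1 probe and Bpifb1 had 2. The genes were chosen by their normalized log2 signal on these arrays, so the levels and the differences between groups are described here without a test.

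Hypothalamus RNA of 12 male mice was hybridized to single-color Agilent arrays, 1 array per mouse and 3 mice in each of 4 groups. The WT group held untrained wild-type littermates and the KO group untrained Asmt-knockout homozygotes, while the exercised WT and KE groups held wild-type and knockout mice trained by daily swimming. Knockout mice carried a 20 bp deletion in Asmt, made with CRISPR/Cas9 in C57BL/6 zygotes and backcrossed for 3 generations to wild-type littermates. The labels give an age of 6 to 7 weeks, which the study's methods place at the start of training. Each array carried 59305 spots, of which 36543 to 40276 passed the scanner software's call for a spot clearly brighter than its surroundings, termed well above background.

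Slide 1 of 2 held all WT mice together with KO replicates 1 and 2, and KO replicate 3 shared slide 2 with the 6 swimming mice. WT mice and swimming mice were never on the same slide, so slide and training cannot be told apart when they are compared. Asmt, the melatonin-synthesis gene targeted in the knockout, was not well above background on any array (0 of 12), with a normalized log2 signal between 1.83 and 2.49. Its probe therefore could not check the genotype labels. Markers of the hypothalamus were present, since 14 of 15 listed genes were well above background on all 12 arrays and the remaining gene, Sim1, on 9.

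Proteins of the BPI-fold family share a lipid-binding fold with bactericidal/permeability-increasing protein and lipopolysaccharide-binding protein. Bpifa1, a short member also called SPLUNC1, is secreted by the epithelium of the nose and large airways, where it lowers the surface tension of airway fluid and acts against bacteria. Bpifb1, a long member also called LPLUNC1, is made by goblet cells and glands of the same epithelium.

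The probe sequences are shown because every level given for these genes rests on them. The Bpifa1 probe was placed by the array annotation at chr2:153971869-153972981 of build mm9, a stretch longer than its 60 bases, so it reads across an intron. The Bpifb1 probes lay at chr2:154046019-154046078 and chr2:154046044-154046103 and shared 35 of their 60 bases, so that they are nearly the same measurement. Of each Bpifb1 probe only the 25 bases that the other lacks are printed. The probes of the 2 genes lay 73.1 kb apart.
Bpifa1 probe: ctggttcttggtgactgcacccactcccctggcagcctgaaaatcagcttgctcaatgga
Bpifb1, first 25 bases of the upstream probe: aggagtgtggaagcctactgtgtag
Bpifb1, last 25 bases of the downstream probe: gctcctgttgtccgggtgtctctgt

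The promoters are shown because the genes are neighbours whose highest signals fell on the same arrays. RefSeq (GRCm38.p6) gave 1 start for Bpifa1 and 2 for Bpifb1, all on the plus strand, and the 250 bases before each start were searched on both strands. Of 32851 promoters of the same length, 12.4% held the TATA motif TATAAA and 33.8% the CCAAT box (letters CCAAT). The forkhead motif TGTTTAC was in 3.17% and the STAT motif TTCNNNGAA in 7.02%, and no match in the promoters of Bpifa1 and Bpifb1 overlapped another. Capitals mark matches. The Bpifa1 promoter, chr2:154142630-154142879, held the TATA motif 29 bases before the start and the CCAAT box 57 bases before it, and again on the minus strand 83 bases before it. The first Bpifb1 promoter, chr2:154190568-154190817, held none of the 4 motifs. The second, chr2:154200130-154200379, held the STAT motif 146 bases before the start. The promoters of the genes thus shared no match to these 4 motifs within 250 bases.
Bpifa1 promoter: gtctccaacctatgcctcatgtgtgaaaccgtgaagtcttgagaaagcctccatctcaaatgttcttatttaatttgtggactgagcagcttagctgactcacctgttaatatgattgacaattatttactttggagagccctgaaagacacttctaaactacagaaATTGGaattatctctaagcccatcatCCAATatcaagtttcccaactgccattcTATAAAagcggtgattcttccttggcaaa
Bpifb1 promoter, first start: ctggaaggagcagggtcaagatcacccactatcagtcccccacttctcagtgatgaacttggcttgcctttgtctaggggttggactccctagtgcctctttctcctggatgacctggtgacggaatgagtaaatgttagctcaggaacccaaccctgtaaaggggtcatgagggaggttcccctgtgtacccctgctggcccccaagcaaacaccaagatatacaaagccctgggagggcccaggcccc
Bpifb1 promoter, second start: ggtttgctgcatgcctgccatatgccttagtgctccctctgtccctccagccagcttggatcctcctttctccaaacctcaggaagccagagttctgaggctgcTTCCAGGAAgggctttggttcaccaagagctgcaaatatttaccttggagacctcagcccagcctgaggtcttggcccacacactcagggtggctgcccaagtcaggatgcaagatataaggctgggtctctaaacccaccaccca

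Both genes were detected in every mouse. Each of the 3 probes was well above background on 12 of 12 arrays, was printed as 1 spot, and carried 0 outlier flags and 0 saturated spots. Before normalization, the processed intensity of the Bpifa1 spot was 105.0, 122.4 and 105.9 in WT mice, against a local background between 26.5 and 31.0. It was 2265.4 and 1114.4 in KO replicates 1 and 2 and 242.2 in KO replicate 3. In swimming mice it lay between 235.5 and 432.4. The difference between arrays was therefore already present in the scanner output.

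On the normalized log2 scale, Bpifa1 was at 6.88, 7.19 and 7.01 in WT replicates 1 to 3. It was at 11.42, 10.20 and 7.90 in the KO mice. The high mean of the KO group thus came from the KO arrays of slide 1. The KO array of slide 2 lay among the swimming mice, which were at 7.72, 7.85 and 8.01 in the exercised WT group and at 8.49, 7.74 and 7.78 in the KE group. The untrained groups had means of 7.03 ± 0.16 (WT) and 9.84 ± 1.79 (KO), and the swimming groups of 7.86 ± 0.15 (exercised WT) and 8.0 ± 0.42 (KE; SD, n = 3 each).

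Bpifb1 was at 7.60, 7.49 and 7.27 in the WT mice at its downstream probe, termed brighter by its mean log2 signal over all arrays. The KO mice were at 8.66, 8.86 and 7.17, so KO replicates 1 and 2 again stood apart and KO replicate 3 did not. The exercised WT mice were at 7.11, 7.26 and 7.07, and the KE mice at 7.33, 7.05 and 7.09. Means were thus 7.45 ± 0.17 (WT) and 8.23 ± 0.92 (KO) without training, and 7.14 ± 0.10 (exercised WT) and 7.16 ± 0.15 (KE) with it (SD, n = 3 each).

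The upstream Bpifb1 probe gave the same picture, at 7.48, 7.38 and 7.16 in WT and 8.91, 9.08 and 7.08 in KO mice. It was at 6.96, 7.13 and 6.92 in exercised WT and 7.21, 6.90 and 6.77 in KE mice. On no array did the Bpifb1 probes differ by more than 0.32 on the log2 scale. The upstream probe was the higher of them in KO replicates 1 and 2 and the lower on every other array.

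**Figure D1:**
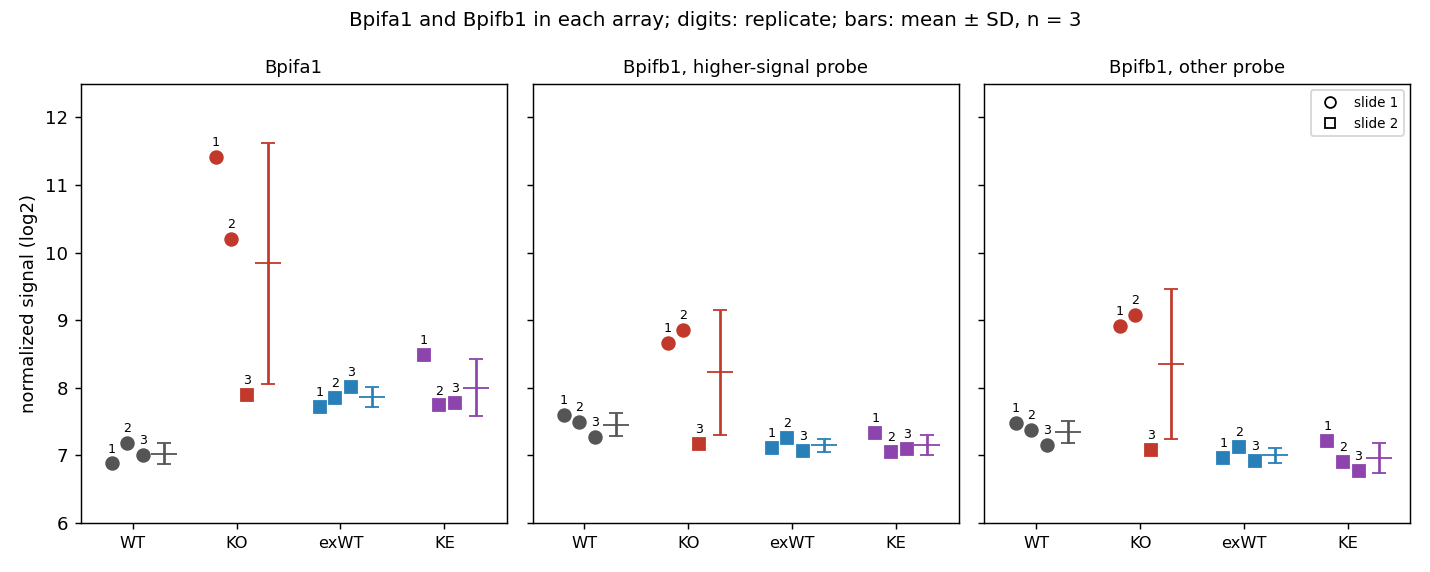
Normalized log2 signal of the Bpifa1 probe and the 2 Bpifb1 probes in each of the 4 groups (exWT, exercised WT), with 1 point per array (digit, replicate number; circle, slide 1; square, slide 2) and the group mean ± SD (n = 3) beside the points. KO replicates 1 and 2 are the highest points of every panel, whereas KO replicate 3 lies among the arrays of swimming mice, at 7.90 for Bpifa1 and at 7.17 and 7.08 for Bpifb1.

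Ordered by group mean, Bpifa1 was lowest in WT, then came exercised WT, KE and KO mice. Exercised WT and KE differed by 0.14, which was less than the spread within KE, and KE and KO differed by 1.84, about the spread within KO. Exercised WT lay above WT by 0.83 with no overlap between the groups, as did 15.4% of the 35230 tested probes, and these groups were on different slides. For Bpifb1 the order was different, with exercised WT and KE mice lowest, then WT, then KO. Exercised WT and KE differed by 0.02 there, and every exercised WT array lay below every WT array at both Bpifb1 probes (highest exercised WT 7.26 against lowest WT 7.27 at the brighter probe), as did 22.2% of tested probes.

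In KO versus WT, the group means of Bpifa1 differed by 2.81 on the log2 scale, a fold of 7.01. Every KO array lay above every WT array, as for 3.58% of tested probes, and this difference ranked 2 among 35230 tested probes, after Wfdc2. For Bpifb1 the difference was 0.78 (1.71-fold) at the brighter probe and 1.02 (2.03-fold) at the other, and the groups overlapped because KO replicate 3 lay below the WT mice. With scaling of the scanner signal to the 75th percentile the differences were 2.80 and 0.77 at the brighter probe, and with normexp background correction 2.42 and 0.61. Within slide 1, where 2 KO arrays can be set against 3 WT arrays, the difference was 3.78 (13.7-fold) for Bpifa1, and 1.30 (2.47-fold) and 1.66 (3.15-fold) for Bpifb1. Without both of these KO arrays, the KO to WT difference rested on 1 KO array on the other slide, and was 0.87 for Bpifa1 and -0.28 for the brighter Bpifb1 probe. Knockout mice of one slide therefore carried the difference, and mouse and slide cannot be told apart in a group with 1 array on slide 2.

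In KE versus KO, Bpifa1 was lower by 1.84 (3.57-fold) and Bpifb1 by 1.07 (2.10-fold) at the brighter probe. This comparison shares its KO arrays with KO versus WT. Within slide 2, where the 3 KE arrays can be set against KO replicate 3 only, the difference was 0.10 for Bpifa1 and -0.01 for Bpifb1. KE and exercised WT mice were all on slide 2, and between them it was 0.14 and 0.02.

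The 2 genes moved together only in part. Both had KO replicates 1 and 2 as their highest arrays, as did 4.47% of the 42032 probes above background on at least 1 array. Between those mice the order was opposite, because Bpifa1 was higher in KO replicate 1 (11.42 against 10.20) and Bpifb1 in KO replicate 2 (8.86 against 8.66). Among the other 10 arrays they went apart, as Bpifa1 was lowest in the WT mice and Bpifb1 was highest in WT replicates 1 and 2. Pearson's r was 0.82 and Spearman's rho 0.19 across all 12 arrays, as a description. Across those 10 arrays r was -0.55 and rho -0.39, with the 3 WT arrays on slide 1 and the other 7 on slide 2. Over the 7 arrays of slide 2 alone, r was 0.73 and rho 0.46, with KE replicate 1 the highest for both genes (8.49 and 7.33).

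**Figure D2:**
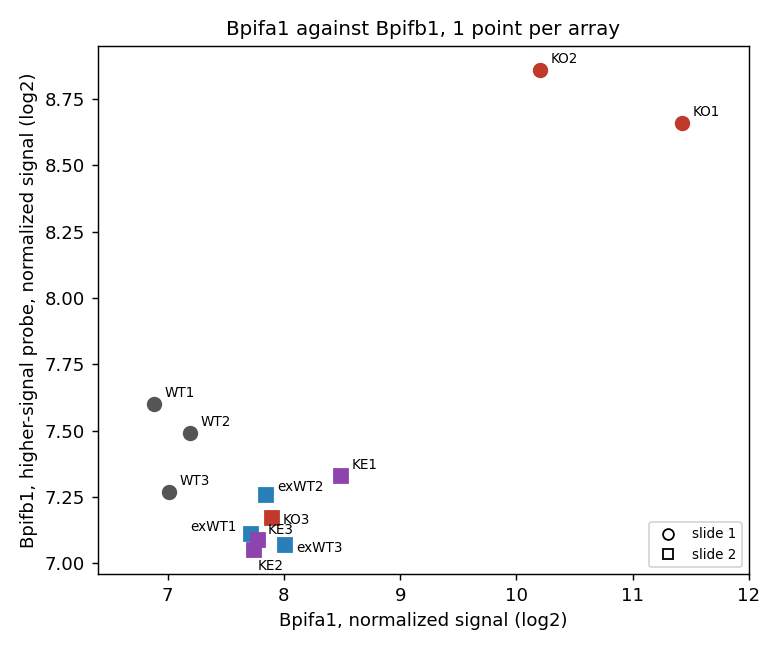
Bpifa1 (horizontal axis) against the brighter Bpifb1 probe (vertical axis), both as normalized log2 signal, with 1 point per array named by group and replicate number (exWT, exercised WT; circle, slide 1; square, slide 2). KO1 and KO2 lie far to the upper right, while the 3 WT arrays are low for Bpifa1 (6.88 to 7.19) and above most arrays of slide 2 for Bpifb1.

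The pattern was looked for in the rest of the BPI-fold family. Of 15 other listed members, 9 were above background on at least 1 array and 5 on all 12. Lbp, which carries bacterial lipopolysaccharide to its receptor, was the only one of the 9 with KO replicates 1 and 2 highest, at 7.96 and 8.18 against 7.39 to 7.92 elsewhere. Pltp, the plasma phospholipid transfer protein, lay between 10.74 and 11.03, Bpifb3 between 4.81 and 6.08, and Bpifc between 16.31 and 16.51 at its brighter probe. The other Bpifc probe disagreed in level and lay between 11.6 and 12.15. Bpifa6 was above background on 3 arrays, exercised WT replicate 1 (8.88), WT replicate 1 (7.21) and exercised WT replicate 2 (5.06), and at 1.86 and 1.87 in KO replicates 1 and 2.

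Genes next to the pair on the chromosome varied to different degrees. Bpifa3, just before Bpifa1, lay between 1.84 and 4.01 and was above background on 1 array. It was at 2.26 and 2.34 in KO replicates 1 and 2. Bpifb4 (1.81 to 4.47) and Bpifb6 (1.82 to 4.02) were also above background on 1 array each, and Bpifa6 is given above. Bpifa5 is the only gene listed by RefSeq between Bpifa1 and Bpifb1, and it stayed between 4.88 and 5.64, with KO replicate 1 highest and KO replicate 2 at 5.30. Cdk5rap1, the first gene after Bpifb1, lay between 10.41 and 10.96. Bpifa2, a salivary member, and Bpifb2 and Bpifb5 nearby were not well above background on any array. The screening criterion of the study (here a fold of 2 or more and limma's p, not adjusted, of 0.05 or less) was met by 79 of 35230 probes (0.224%) in KO versus WT and by 426 (1.21%) in KE versus KO. The counts were 770 (2.19%) in exercised WT versus WT and 89 (0.253%) in KE versus exercised WT. The split in KE versus exercised WT was 38 higher and 51 lower, and 54 and 24 with scaling to the 75th percentile. At such shares the 0 of 5 tested family members that met it in any comparison is no result about the family.

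**Figure D3:**
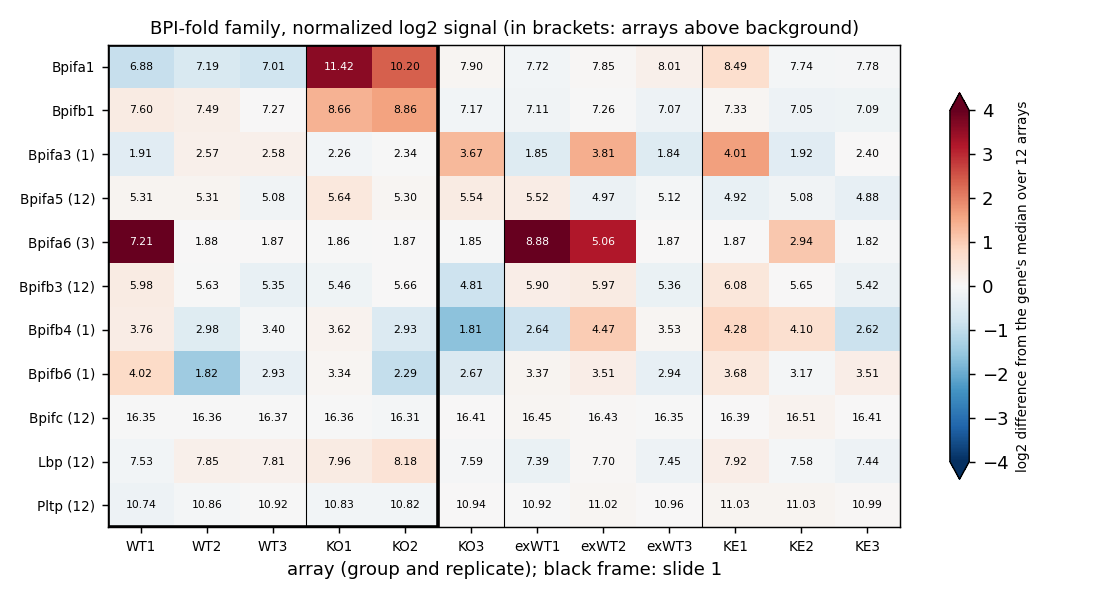
Normalized log2 signal of Bpifa1, Bpifb1 (brighter probe) and the 9 other BPI-fold genes above background on at least 1 array (number of such arrays in brackets), with arrays as columns and color giving the log2 difference of each array from the median of that gene over 12 arrays. KO1 and KO2 stand out in the upper rows for Bpifa1 and Bpifb1 and weakly for Lbp, while Bpifa6 is high in WT1 and exWT1 (exercised WT).

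The genes most like the pair were taken by Pearson's r over 12 arrays with the mean profile of Bpifa1 and Bpifb1. The candidates were 4517 probes with a gene symbol, above background on at least 1 array and with a range of at least 2 on the log2 scale. The 15 with the highest r, from 0.98 to 0.86, were 4933427E13Rik, Alb, Man1a, Tff2, Olfr135, Gm15698, Olfr608, Olfr1202, Zcchc11, Ropn1, Wfdc2, Gm5416, 9830132P13Rik, Cbr2 and Gm9047. KO replicates 1 and 2 held their highest values in 15 of 15, which the choice by r itself favors. For 12 of the 15 the probe was not above background in any WT, exercised WT or KE mouse. These 12 became candidates only through KO replicates 1 and 2, where they were high. Their r thus sets 1 or 2 high arrays against signal near background. Alb, the serum albumin gene of liver, was at 6.13 and 6.38 in KO replicates 1 and 2 and between 1.82 and 3.15 elsewhere. Tff2, a trefoil peptide of mucous epithelia, was above background on 1 array, KO replicate 1 (6.02), with 3.70 in KO replicate 2 and 1.82 to 1.87 elsewhere. When each gene was used alone, 6 of the 15 genes nearest to Bpifa1 were also among the 15 nearest to Bpifb1.

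Among genes of secretory airway epithelium, 12 of 17 with a probe were above background on at least 1 array. KO replicates 1 and 2 were the highest arrays for 6 of the 12, namely Scgb1a1, Scgb3a1, Tff2, Cyp2f2, Cbr2 and Msln, beside the 4.47% given above. Tff2 was among the 12 through KO replicate 1 alone, where it was high. Of the 7 genes above background on all 12 arrays, which do not depend on any one group, 4 had this order (Scgb3a1, Cyp2f2, Cbr2 and Msln), as did 5.13% of 32095 such probes. Scgb3a1, a secretoglobin of airway secretory cells, was at 8.0 and 7.62 in these mice and between 5.07 and 6.63 elsewhere. Cbr2, a lung carbonyl reductase, was at 9.25 and 8.81 and between 7.12 and 8.16 elsewhere. Scgb1a1, the defining marker of club cells, was above background on 4 arrays, at 4.62 and 4.45 in KO replicates 1 and 2 and between 2.69 and 4.14 elsewhere. Muc5ac, Reg3g, Dmbt1, Agr2 and Chil4 were not above background on any array. The brightest gene of the list, Pigr, which carries immunoglobulin across epithelia, did not follow, with 14.47 and 14.45 in KO replicates 1 and 2 and 14.51 to 15.19 elsewhere. Lypd2, Scgb3a2, Scgb1c1, Muc5b and Ltf did not have these as their highest arrays either. Lypd2 was at 6.55 and 6.31 in KO replicates 1 and 2, with 6.50 in KE replicate 1 between them. The secretoglobin Scgb3a2 was at 5.87 and 5.98 against 5.12 to 6.22 elsewhere, and Scgb1c1 at 2.16 and 2.28 against 2.26 to 5.48. The mucin Muc5b was at 3.84 and 3.79 in KO replicates 1 and 2 against 2.86 to 5.13 elsewhere, and Ltf at 1.82, its lowest, and 4.90 against 3.39 to 6.15. With Pigr included, the summed level of the list was 24900 and 24200 in these mice and between 24000 and 38200 elsewhere.

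Structural genes of epithelia were divided. KO replicates 1 and 2 were highest for 5 of 11 detected genes, the simple-epithelium keratins Krt8, Krt18 and Krt19, the adhesion molecule Epcam and the claudin Cldn7. Of the 5 genes above background on all 12 arrays, 4 had this order, Epcam not being among them. Krt8 was at 7.47 and 8.06 in them and between 5.95 and 7.03 elsewhere. The other 6 detected genes, Cdh1, Krt14, Cldn4, Ehf, Grhl2 and Esrp1, did not have these as their highest arrays. Grhl2, an epithelial transcription factor, was at 5.02 in KO replicate 1, its highest, and at 2.65 in KO replicate 2, its lowest. Krt14, a basal keratin, was highest in KE replicate 1 (6.67), with 5.60 and 5.89 in KO replicates 1 and 2, and the splicing factor gene Esrp1 was at 5.38 and 5.16 in them and between 4.33 and 5.95 elsewhere. The basal keratin Krt5 and the transcription factor Elf3 were not above background on any array. The summed level of the list, in which Krt18 was brightest, was 1380 and 1580 in KO replicates 1 and 2, 1270 in KE replicate 1 and between 854 and 1110 in the other mice. The summed level and the 5 genes named first were thus highest where Bpifa1 and Bpifb1 were, and their part in the result was not tested. In whole tissue, more cells of a type and more RNA per cell cannot be told apart.

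**Figure D4:**
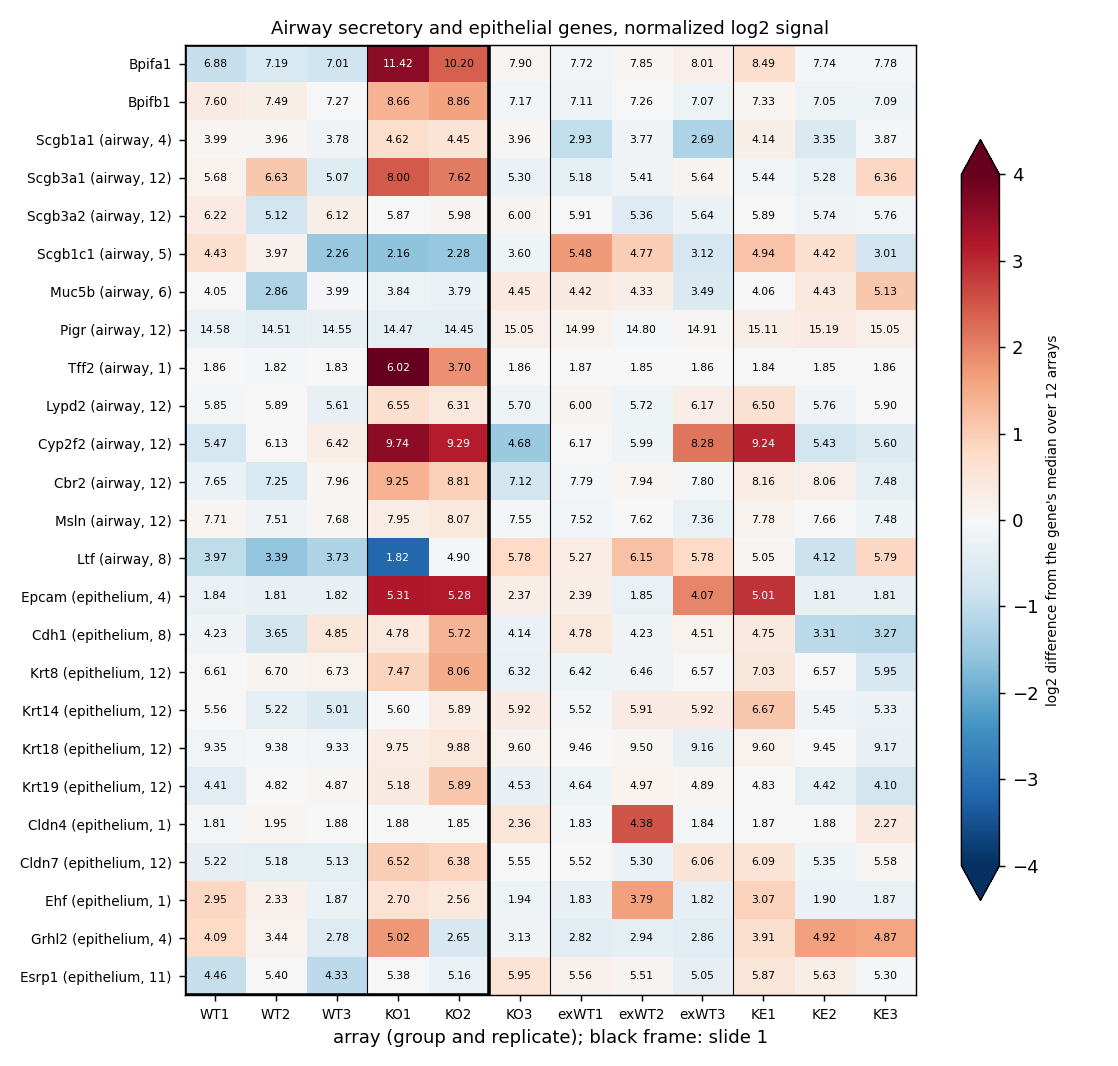
Normalized log2 signal of Bpifa1, Bpifb1 (brighter probe) and the detected genes of the airway secretory and epithelial lists (number of arrays above background in brackets), with arrays as columns and color giving the log2 difference from the median of each gene over 12 arrays. Scgb3a1, Tff2 and Krt8 are highest in KO1 and KO2, Cyp2f2 and Epcam are also high in KE1 and exWT3 (exercised WT), and Pigr is lowest in KO1 and KO2.

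Other tissues were compared in the same way. KO replicates 1 and 2 were highest for 0 of 12 olfactory and nasal genes, 1 of 6 salivary genes (Lpo), 1 of 13 genes of motile cilia (Dnah5), 1 of 8 choroid plexus genes (Folr1), 0 of 9 genes of meninges and blood and 1 of 15 hypothalamic genes (Agrp). The olfactory marker Omp was highest in WT replicate 1 (10.52) and at 8.07 and 8.75 in KO replicates 1 and 2. Of the odorant-binding protein genes, Obp1a was above background on all 12 arrays (5.22 to 6.58, highest in KO replicate 3) and Obp1b and Obp2a on none. The lipocalin genes Lcn3, Lcn4 and Lcn11 and the salivary genes Smr3a, Pip, Klk1, Prol1, Dcpp1, Dcpp2 and Dcpp3 were also not above background on any array. Summed levels in KO replicates 1 and 2 were 7390 and 7450 for the olfactory list (brightest gene Gng13), against 7290 to 9170 in the other mice. They were 2680 and 2690 for the salivary list (Amy1, others 2460 to 3230) and 22700 and 22800 for motile cilia (Mcidas, others 19600 to 26700). For choroid plexus (Clic6) they were 4820 and 7240 against 4620 to 7020, for meninges and blood (Hba-a1) 132000 and 254000 against 140000 to 230000, and for hypothalamus (Oxt) 318000 and 379000 against 310000 to 372000. The unlogged olfactory and salivary sums mostly repeat Gng13 (12.67 and 12.65 in KO replicates 1 and 2) and Amy1 (11.17 and 11.19). The sum of meninges and blood mostly repeats Hba-a1 (15.89 and 16.8) and Hba-a2 (15.76 and 16.69). These sums say little about the fainter genes of those lists. The choroid plexus gene Ttr separated the mice that shared a high Bpifa1, with 5.53 in KO replicate 1, the lowest of all arrays, and 9.63 in KO replicate 2. KO replicate 2 was the highest array for each of the 9 genes of meninges and blood, such as Hbb-bt (14.5) and Lum (8.31). KO replicate 1 was the lowest for Hbb-bt (13.0), Hba-a1, Hba-a2 and Alas2, while Dcn and Lum were at 12.24 and 7.65 in it. Their part in the levels of Bpifa1 and Bpifb1 was not tested.

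Among innate defence genes, KO replicates 1 and 2 were highest for 2 of 14, Wfdc2 and Slpi, both secreted proteins of the whey-acidic-protein family. The neutrophil genes S100a8 and S100a9 went another way, at 4.42 and 6.44 in KO replicate 1, the lowest of all arrays, and at 8.54 and 10.40 in KO replicate 2. Lcn2, which binds bacterial siderophores, was at 11.02 in KO replicate 2 and between 6.07 and 7.26 in every other mouse. The summed level of this list (brightest gene Lyz2) was 5000 and 9630 in KO replicates 1 and 2 and between 3770 and 6510 elsewhere. KO replicates 1 and 2, alike in their high Bpifa1 and Bpifb1, thus differed from each other in these neutrophil genes.

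In KO versus WT, the screening criterion was met by 1 gene of these lists, Bpifa1 and Bpifb1 apart. Wfdc2, a whey-acidic-protein gene of secretory epithelia, was higher by 3.43 on the log2 scale (standard error 1.34, adjusted p = 0.849 from limma), where 0.153% of tested probes were higher, at 5.02, 5.38 and 5.79 in WT mice and at 10.74, 9.80 and 5.95 in KO mice. Within slide 1 the difference was 4.87. None of the 8 tested airway genes and none of the 7 tested epithelial genes met it, with median log2 differences of 0.44 and 0.61 against -0.01 over all tested probes. By limma 0 probes (0.0%) had an adjusted p under 0.05 in this comparison, 1931 (5.48%) had an unadjusted p under 0.05, and the methods' t-test also gave 0 after adjustment. The limma count was 3 without KO replicate 3 or with the slide as a block, 1 without KO replicate 2 or without KE replicate 3, and 4286 without both KO arrays of slide 1, which leaves 1 KO array on the other slide.

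In exercised WT versus WT, Ltf (2.04, standard error 0.84, adjusted p = 0.168 from limma), Lyz1 (1.13, standard error 0.31, adjusted p = 0.0946), Cyp2a5, Aqp1 and Sim1 were higher at the screening criterion. Higher probes made up 2.07% of all tested, and these groups lay on different slides. Ltf was above background in 1 of 3 WT mice and entered the test through the exercised WT group alone, where it was high, and Aqp1 and Sim1 were above background in 2 of 3 WT mice, so their differences are partly against signal near background. With the slide as a block Ltf and Sim1 turned to -0.38 and -1.10, Lyz1 and Aqp1 came to 0.15 and 0.39, and Cyp2a5 to 2.93. After adjustment limma called 0 probes (0.0%) there, with 9154 (26.0%) at an unadjusted p under 0.05, and the methods' t-test 1635. The limma count rested on KO replicate 3, an array outside this comparison that enters the shared estimate of spread, since it was 6353 without that array (3397 higher and 2956 lower). It was 1 without KO replicate 2 and 5 with no detection filter. Without KO replicate 3 the adjusted p from limma was 0.0149 for Lyz1 and 0.0789 for Ltf, and over all arrays left out in turn it ranged from 0.0149 to 0.229 and from 0.0789 to 0.314. In KE versus KO, Bpifa1 and Bpifb1 apart, only the adherens junction gene Cdh1 of these lists met it, with a log2 difference of -1.11 (standard error 0.49, adjusted p = 0.234 from limma) and of -0.36 with the slide block, where 0.108% of tested probes were lower. Cdh1 was above background in 2 of 3 KO and 1 of 3 KE mice and entered the test through exercised WT mice alone, so this difference too is partly against signal near background. With each array left out in turn the adjusted p of Cdh1 from limma ranged from 0.0639 (without KO replicate 3) to 0.581 (without KO replicate 2, where the difference was -0.69). In this comparison 7 probes (0.0199%) had an adjusted p under 0.05 by limma, 8577 without KO replicate 3, and 0 to 4 with any other single array left out. The count was 0 with scaling to the 75th percentile, with the replicate block and by the methods' t-test, 3 with normexp, 9 with the slide block and 19 with no detection filter. No gene of the lists met it in KE versus exercised WT.

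Beyond KO replicates 1 and 2, the next highest arrays for Bpifa1 were KE replicate 1 (8.49) and exercised WT replicate 3 (8.01). These 4 arrays were also the highest for Wfdc2, Cyp2f2, Lypd2, Epcam and Cldn7 and the connective tissue proteoglycans Dcn and Lum of the lists above, and for 54 of 42032 probes in all (0.128%), a grouping noticed after the values were seen. Wfdc2 was at 8.87 in KE replicate 1 and 7.43 in exercised WT replicate 3, and between 4.28 and 6.13 in the mice outside the 4. Cyp2f2, a cytochrome P450 of club cells, was at 9.74, 9.29, 9.24 and 8.28 in KO replicates 1 and 2, KE replicate 1 and exercised WT replicate 3, and between 4.68 and 6.42 in the others. Epcam was above background only on these arrays, at 5.31, 5.28, 5.01 and 4.07. For Bpifa1 itself, exercised WT replicate 3 stood little above KO replicate 3 (7.90) and exercised WT replicate 2 (7.85). Bpifb1 did not have these 4 arrays highest, as its highest arrays after KO replicates 1 and 2 were WT replicates 1 and 2.

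The genes with the largest excess in KO replicate 1, the array with the highest Bpifa1, over the median of the other mice included Cga, Pitx1 and a probe of Tshb. These were above background on 5, 4 and 4 arrays, so that the median of the other mice is a background value, and neither the size of the excess nor an order among them is given. Cga, the common subunit of pituitary glycoprotein hormones, was at 11.51, 10.58, 10.87 and 10.71 in the same 4 mice, at 5.90 in WT replicate 2 and between 1.85 and 2.83 in the others. Pitx1, a transcription factor of the anterior pituitary, was at 8.87, 8.27, 8.75 and 8.23 in the 4 mice, at 3.94 in WT replicate 2 and between 1.82 and 1.87 in the others. This Tshb probe, for the beta subunit of thyroid-stimulating hormone, was at 7.75, 6.89, 7.26 and 6.98 in the 4 mice, the arrays on which it was above background, and between 1.91 and 3.04 in the others. The Tshb probe with the higher mean over the 12 arrays disagreed, lying between 4.68 and 5.11 on all of them.

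Of 9 anterior pituitary genes, a list added after these values were seen, 7 were above background on at least 1 array, and Pou1f1 and Ghrhr on none. KO replicates 1 and 2, KE replicate 1 and exercised WT replicate 3 were the 4 highest arrays for 2 of the 7, Cga and Pitx1. Both had prompted the list, so this count was fixed by the choice. At their brightest probes the other detected genes of the list did not have this order. These 4 arrays were also highest for 2 of 12 airway, 2 of 11 epithelial, 2 of 9 meninges and blood and 1 of 14 innate defence genes. The olfactory, salivary, cilia, choroid plexus and hypothalamus lists had 0. By the order used for those lists, KO replicates 1 and 2 highest, the count here was 0 of 7. Gnrhr was above background on 1 array, KE replicate 2 (4.63), and between 1.90 and 1.93 in the 4 mice. Tbx19 was above background on 1 array, exercised WT replicate 1 (5.15), and between 1.87 and 3.48 in the 4 mice. The summed level of the list was 3780 and 2080 in KO replicates 1 and 2, 2580 in KE replicate 1, 2280 in exercised WT replicate 3 and between 206 and 309 in the others. In these 4 mice Cga was the brightest gene of the list, so the unlogged sum mostly repeats a gene that prompted the list. Lhb, the beta subunit of luteinizing hormone and the brightest of the list by its mean log2 signal over the arrays, did not follow and lay between 7.13 and 7.66. Fshb, the beta subunit of follicle-stimulating hormone, was at 7.12 and 4.78 in KO replicates 1 and 2, 5.73 in KE replicate 1, 5.72 in exercised WT replicate 3 and 4.92 in WT replicate 2, and between 1.85 and 2.89 in the others. Cga and Pitx1 were within 1 log2 unit across the 4 mice, whereas Bpifa1 spanned 8.01 to 11.42 and Bpifb1 7.07 to 8.86 in them. Their part in the levels of Bpifa1 and Bpifb1 was not tested.

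**Figure D5:**
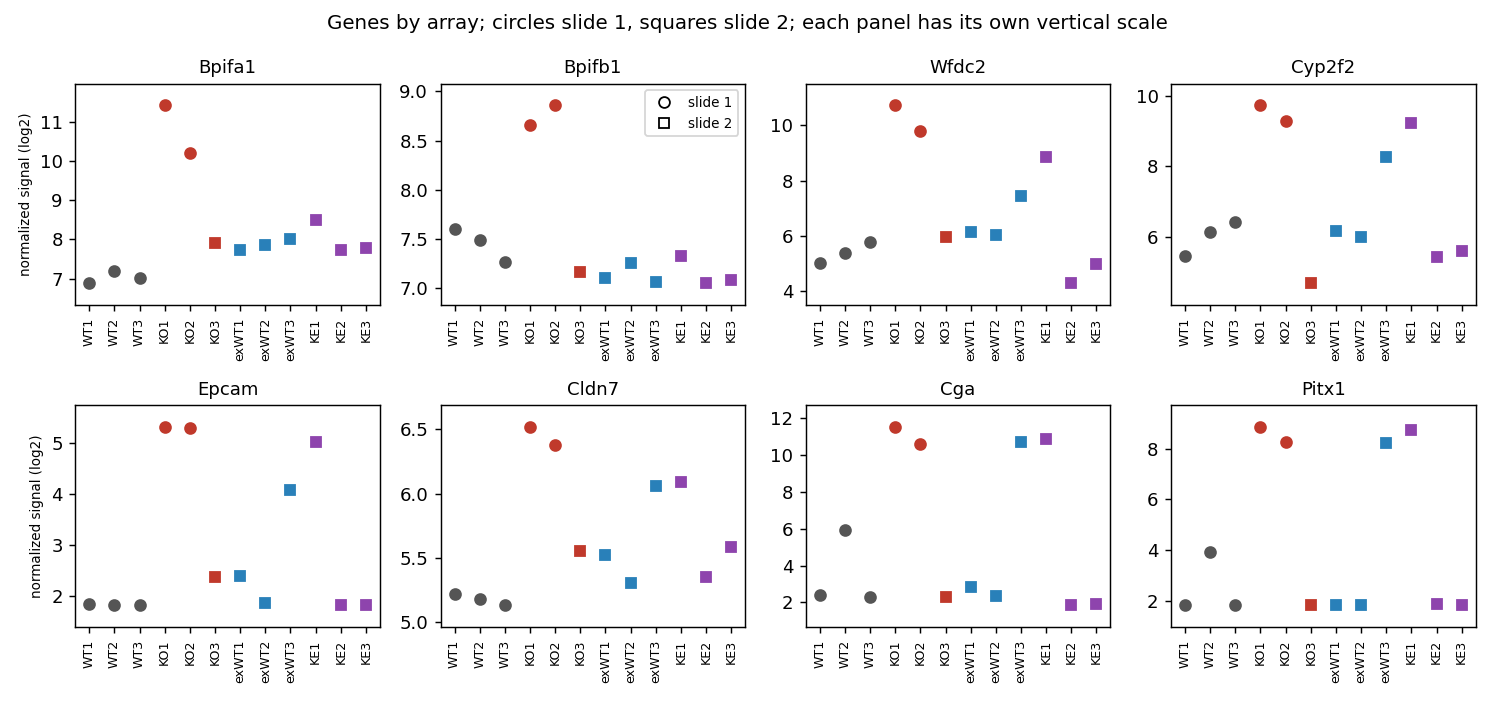
Normalized log2 signal of 8 genes on the 12 arrays (circle, slide 1; square, slide 2; each panel has its own vertical scale). Wfdc2, Cyp2f2, Epcam, Cldn7, Cga and Pitx1 are high in KO1, KO2, exWT3 (exercised WT) and KE1, whereas Bpifa1 and Bpifb1 are far above the rest only in KO1 and KO2.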

How the data were processed

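RNA was measured on Agilent SurePrint G3 mouse arrays. The scanner files deposited by the authors give the intensity of each spot, with background subtracted by Feature Extraction 10.7.1.1 as named in the submitters' processing notes. All levels come from the authors' deposited log2 table, which they had quantile-normalized across the 12 arrays with GeneSpring. Its raw values lay within 0.01 on the log2 scale of the scanner output for 56514 to 56589 of 56605 probes per array. The deposited tables of the authors' own comparisons, with fold changes, p-values and 24 columns of values per sample, were not used.

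Tested probes (35230) were well above background in every mouse of a group, for 1 group or more. Group means were fitted over 12 arrays with limma 3.58.1 in R 4.3.3, with Benjamini-Hochberg adjustment over all tested probes, after a test on simulated data. The arrays are from separate mice, and their number limits the precision. Slides were read from the scanner output. A list's summed level is the sum of the unlogged normalized signal of its genes with a probe (Bpifa1 and Bpifb1 left out), detected or not, each at its brightest probe. For a gene with several probes the brightest by mean log2 signal over all arrays was used.

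The genes, the lists and the tests were chosen with earlier results of these data known. By the rule for named genes, the text took the BPI-fold genes and Asmt, the 15 genes most like the pair, the genes with the largest excess on the array highest for Bpifa1, and from each list the brightest gene, genes of wide range and those at the screening criterion. The remaining named genes of the lists were chosen after their values were seen. One gene of the anterior pituitary list is not reported here and was left out of its counts and summed level. Alternatives were scanner signals quantile-normalized, scaling to the 75th percentile, normexp with an offset of 50, 2 other detection filters, the methods' t-test, slide and replicate blocks, and leaving out each array. Probe positions are mm9, and promoters are RefSeq GRCm38.p6. Descriptions used Python 3.11.15 with pandas 2.3.3 (numpy 2.4.6) and plots matplotlib 3.10.9.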

Additional observations from a re-analysis of the deposited data

How the results depend on the processing

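With the slide as a block, estimated through KO mice alone, the difference of Bpifa1 in KE versus KO reversed to 0.10, that of Bpifa1 in exercised WT versus WT went from 0.83 to 3.74, and those of Bpifb1 were 1.28 in exercised WT versus WT, a reversal, and -0.01 in KE versus KO. Without both KO arrays of slide 1, an alternative added after the data were seen, Bpifa1 was at 0.87 in KO versus WT and 0.10 in KE versus KO, a reversal, and Bpifb1 at -0.28 and -0.01. Normexp lowered Bpifa1 in exercised WT versus WT to 0.62. Without KO replicate 1, 2 or 3 alone, Bpifa1 in KO versus WT was 2.02, 2.63 or 3.78 and Bpifb1 was 0.56, 0.46 or 1.30, and in KE versus KO Bpifa1 was -1.05, -1.66 or -2.81 and Bpifb1 -0.85, -0.75 or -1.60. The cause of these shifts was not tested.

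Probes at the screening criterion in KO versus WT numbered 79, and 2 with normexp, 487 without a filter, 9 with a filter on all 12 arrays, 24 by the methods' t-test, 1390 without both KO arrays of slide 1, and 67 to 207 without 1 array (207 without KO replicate 2, 205 without KO replicate 1, 124 without WT replicate 1). In exercised WT versus WT the number was 770, and 253 with normexp, 1524 without a filter, 441 with the filter on all arrays, 277 with the slide block, and 714 to 894 without 1 array. In KE versus KO it was 426, and 124 with normexp, 1015 without a filter, 231 with the filter on all arrays, 57 by the t-test, 169 with the slide block, 160 without both KO arrays of slide 1, and 124 to 1187 without 1 array (131 without KO replicate 1, 124 without KO replicate 2, 1187 without KO replicate 3, 255 without KE replicate 1). In KE versus exercised WT it was 89, and 5 with normexp, 808 without a filter, 13 with the filter on all arrays, 51 by the t-test, and 85 to 137 without 1 array (137 without exercised WT replicate 3).

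The labels' replicate numbers do not pair the mice, as the deviations of same-numbered arrays correlated between -0.19 and 0.24. With the replicate number as a block, 73, 764, 394 and 90 probes met the criterion, and the differences of Bpifa1 and Bpifb1 were the same as without it (2.81 and 0.78 in KO versus WT).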
